A study of Rattus norvegicus with 8 samples.

Results

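The genes described here are 34 markers of myeloid and lymphoid cells, measured in whole rat kidney. They were taken from a list of symbols chosen with earlier results of these data known. Each gene has 1 probe set here, the one with the highest mean over the 8 arrays. All 34 were found among the 14217 genes that the platform annotation names with a single symbol. The arrays held the left kidneys of 29-week-old female Sprague-Dawley rats, 4 Si deplete and 4 Si replete, 1 array per rat. Both groups ate the same feed low in silicon for 26 weeks. The Si replete rats also received orthosilicic acid in their drinking water, so that daily intakes per kg of body weight came to 0.17 mg Si for Si deplete rats and 4.1 mg Si for Si replete rats. The question here is whether kidneys from the 2 diets differed in the transcripts of immune cells, and whether macrophage, granulocyte, T cell, B cell and NK cell markers behaved alike. The sources used here do not say whether the kidneys were flushed of blood, and, although rats of the groups were killed on the same days, they tie no array to a cage or to a day of harvest.

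Leukocytes share a set of membrane and cytoskeletal proteins, among them the phosphatase CD45 (Ptprc) and the common chain of the beta-2 integrins (Itgb2), and are told apart by lineage proteins built on top of that set. Macrophages depend on signals through the colony stimulating factor receptor Csf1r and relay the signals of many surface receptors through the adaptors Tyrobp and Fcer1g, whereas T cells do so through the CD3 chains and the kinase Lck. The kidney contains a network of resident macrophages and dendritic cells around its tubules and few lymphocytes, and both populations are known to expand around damaged tubules. In a ground kidney, more cells of a type and more RNA per cell cannot be told apart.

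The values are log2 levels computed by the authors by gcRMA, which corrects background by probe sequence, brings the arrays to a common scale and condenses the probes of a probe set into 1 level. Levels near the lower end of this scale carry little signal, and 14 of the 34 markers had a mean level under 4: Cd68, Cd163, Itgam, Ms4a7, Ncf1, S100a8, Cd3d, Cd2, Cd4, Cd8a, Cd79b, Gzmb, Nkg7 and Klrd1. The other 20 lay at mean levels of 4.04 to 11.60. The tissue was kidney by its markers, since all 12 genes of a proximal tubule list had mean levels of 8.02 or more. Array medians were between 3.80 and 3.92. On the first principal component Si deplete replicate 1 stood apart at 64.0, against -25.9 to 19.2 for the other arrays. The number of markers higher at an unadjusted p under 0.05 and the median change are therefore also given without it. Counts for single classes and for other lists are given with all 8 arrays only. With 4 arrays per group, the number of rats limits the precision.

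None of the 34 markers passed limma's moderated test at an adjusted p under 0.1, a threshold that 0.151% of all 31042 probe sets passed. By Storey's q-value 1 did, Itgb2. Most nevertheless had higher levels in Si deplete kidneys. The log2 change was above 0 for 29 of the 34, against 50% of all genes, and its median was 0.47, against 0.00013 over all genes. At an unadjusted p under 0.05, 12 markers (35.3%) were higher and none was lower in Si deplete kidneys, whereas 10.5% of all genes were higher and 7.95% were lower. Among markers with a mean level of 4 or more, 10 of 20 were higher at that p, against 12.9% of genes of such level. Among dimmer markers 2 of 14 were, Cd68 and Cd3d, against 5.8% of dim genes. Complete separation of the groups was not more common than elsewhere: 2 markers, Itgb2 and Coro1a, had every Si deplete kidney above every Si replete kidney, which is 2 of 34 against 6.45% of all genes, and none was separated in the other direction, against 5.49%. Without Si deplete replicate 1, 9 markers were higher at an unadjusted p under 0.05 (8.67% of all genes), with a median change of 0.46. A single array on each side had the most weight. Without Si deplete replicate 3, 18 markers were higher at an unadjusted p under 0.05 (11.7% of all genes), 14 separated the groups (10.3% of all genes) and 6 passed at an adjusted p under 0.1 in limma. Calls over all 31042 probe sets grew as well in that comparison, from 35 to 235 higher and from 12 to 67 lower. Without Si replete replicate 3, only 7 were higher at an unadjusted p under 0.05 (8.22% of all genes) and the median change was 0.32.

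**Figure D1:**
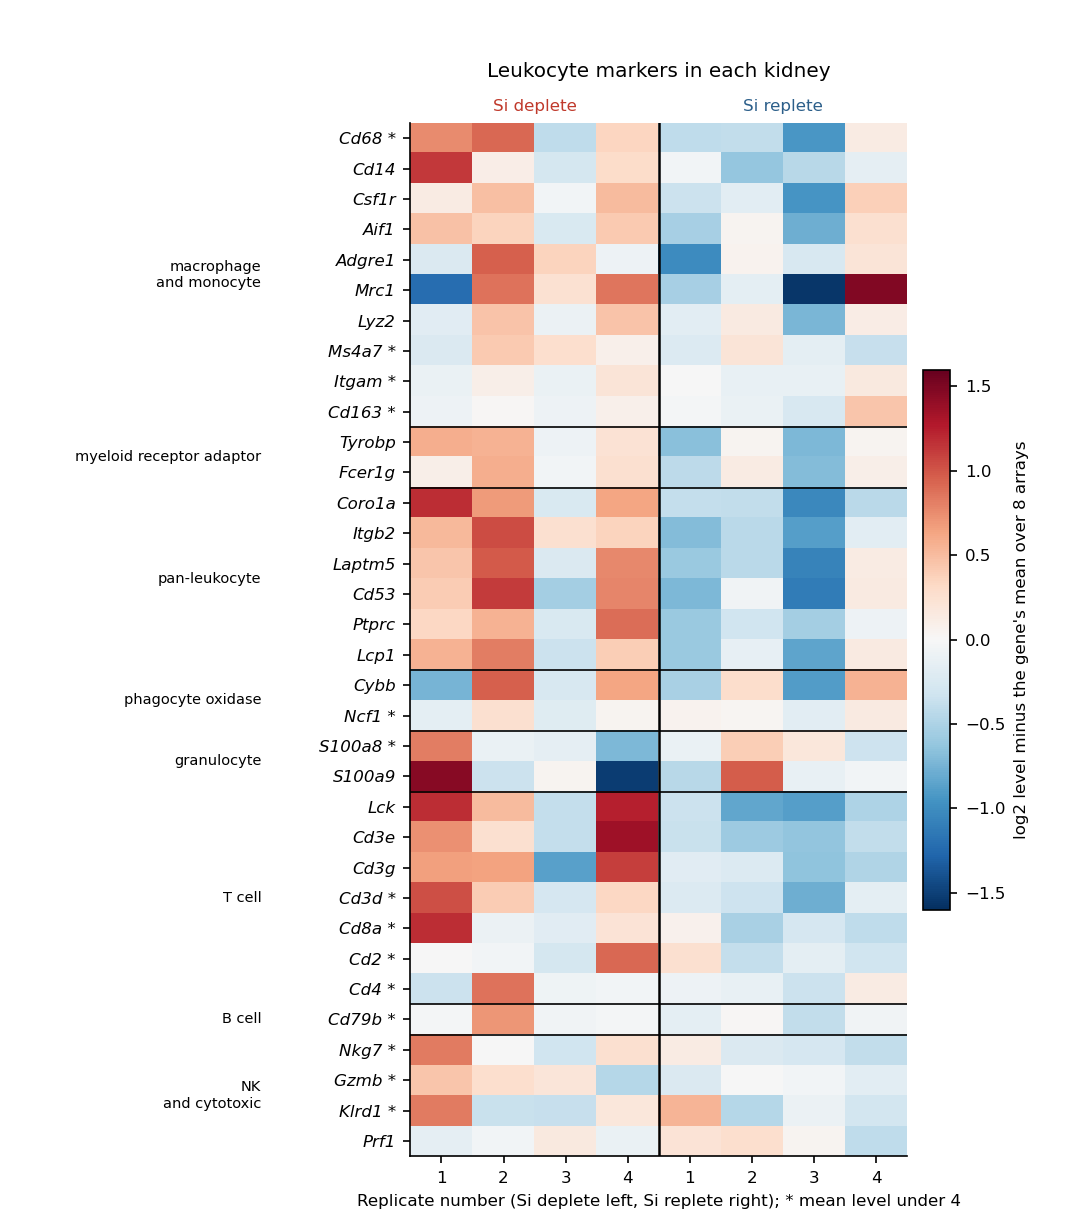
Log2 level of each of the 34 markers in each kidney, minus the gene's mean over the 8 arrays, with genes as rows grouped by cell type and arrays as columns. An asterisk marks a mean level under 4. Red, for higher levels, dominates among pan-leukocyte and T cell genes in Si deplete replicates 1, 2 and 4. Si deplete replicate 3 is mostly pale or blue. In the granulocyte genes, high and low levels occur in both diets.

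The pan-leukocyte genes mark white cells of every lineage. Their median change, 0.93 over 6 genes, was the highest of the classes with more than 1 gene. All 6 were higher at an unadjusted p under 0.05, against 10.5% of all genes. Itgb2, the shared chain of the integrins by which leukocytes adhere and migrate, had levels of 5.84, 6.36, 5.57 and 5.68 in the Si deplete kidneys and of 4.63, 4.88, 4.44 and 5.15 in the Si replete kidneys, in the order of their replicate numbers 1 to 4, as for all genes below. The lowest Si deplete kidney was above the highest Si replete kidney. The Si deplete mean was 5.86 ± 0.35 and the Si replete mean 4.77 ± 0.31 (SD, n = 4 each), a 2.12-fold difference that exceeded the spread within either group (log2 change 1.09, standard error 0.20, adjusted p = 0.126 from limma). The exact 2-sided permutation test gave p = 0.0286, the smallest that 4 against 4 allow.

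Coro1a, an actin-binding coronin of hematopoietic cells, was at 9.56, 9.06, 8.14 and 9.01 in the Si deplete kidneys and at 8.00, 7.99, 7.35 and 7.95 in the Si replete kidneys. The groups did not overlap, though Si deplete replicate 3 lay only slightly above 3 of the Si replete kidneys. The log2 change was 1.12 (standard error 0.28, adjusted p = 0.172 from limma), and 0.91 without Si deplete replicate 1. For Ptprc, which encodes CD45 and defines leukocytes, levels were 7.99, 8.22, 7.41 and 8.56 in Si deplete and 7.07, 7.34, 7.12 and 7.59 in Si replete kidneys. The overlap came from 1 pair of kidneys, Si deplete replicate 3 and Si replete replicate 4. The log2 change of Ptprc was 0.77 (standard error 0.23, adjusted p = 0.211 from limma).

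Laptm5, a lysosomal membrane protein of immune cells, was at 7.39, 7.93, 6.72 and 7.71 in Si deplete and 6.35, 6.51, 5.87 and 7.08 in Si replete kidneys, again with an overlap between the same pair. The log2 change was 0.98 (standard error 0.30, adjusted p = 0.219 from limma), a 1.98-fold difference. The tetraspanin Cd53 differed by 0.88 (standard error 0.38) and Lcp1, the actin-bundling protein L-plastin, by 0.71 (standard error 0.28). Both overlapped between the groups, with SDs of 0.45 to 0.72 within a group, and neither passed (adjusted p-values from limma 0.329 and 0.289).

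**Figure D2:**
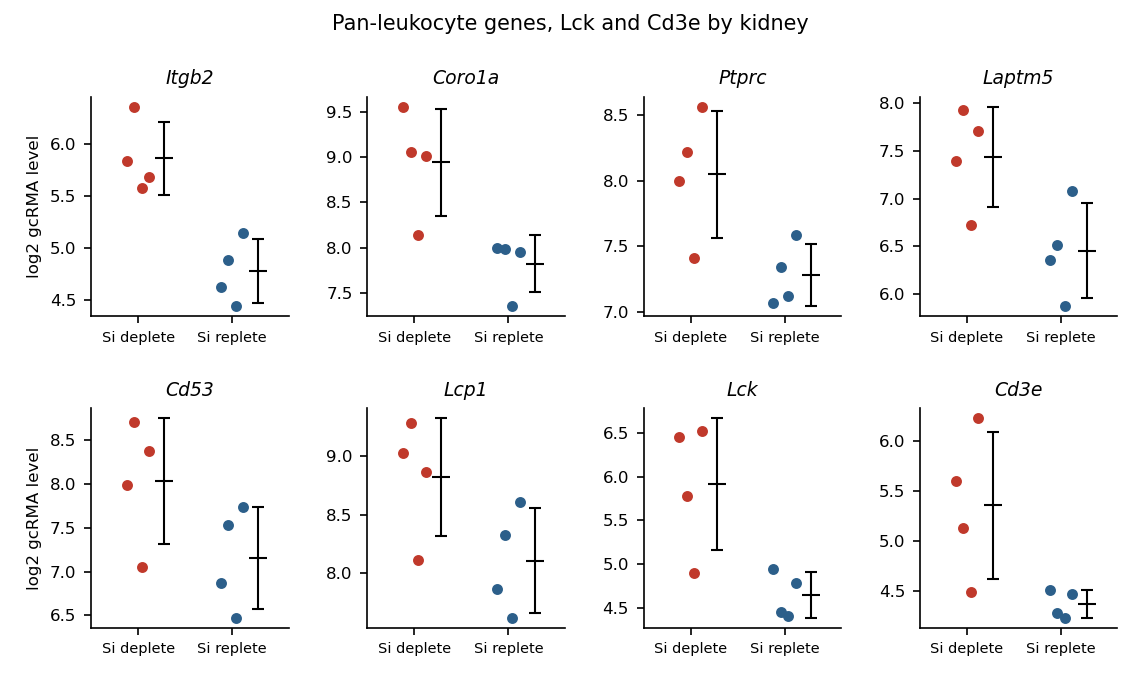
Log2 gcRMA level (vertical axis, with a separate range per gene) of the 6 pan-leukocyte genes and of Lck and Cd3e for the kidneys of each diet. Every dot is 1 kidney, the black mark beside the dots gives the group mean ± SD (n = 4), and only Itgb2 and Coro1a show no overlap between the diets.

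The bases before the gene's start are shown for Laptm5, Ptprc, Coro1a and Lck, as markers on which the pan-leukocyte and T cell results turn. They are also shown for S100a9, a granulocyte marker whose levels overlapped widely between the diets (log2 change -0.18, standard error 0.56). RefSeq promoters on build GRCr8 were matched to 25 of the 34 genes. The window is the 250 bases before the annotated start, written in the direction of the gene. Capitals mark GAGGAA or AGGAAG on either strand, cores of sites for ETS factors such as PU.1, which drives myeloid genes. Both strings contain AGGAA and can overlap. The windows lie at chr5:148371630-148371879 (+ strand) for Laptm5, chr13:52259747-52259996 (- strand) for Ptprc, chr5:147201268-147201517 (- strand) for Lck, chr1:190731104-190731353 (- strand) for Coro1a and chr2:178490623-178490872 (- strand) for S100a9.
Laptm5: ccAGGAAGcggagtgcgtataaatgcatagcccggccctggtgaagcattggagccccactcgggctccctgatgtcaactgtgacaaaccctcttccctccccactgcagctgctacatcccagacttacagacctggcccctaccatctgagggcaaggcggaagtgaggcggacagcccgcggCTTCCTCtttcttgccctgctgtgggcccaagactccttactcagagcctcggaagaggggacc
Ptprc: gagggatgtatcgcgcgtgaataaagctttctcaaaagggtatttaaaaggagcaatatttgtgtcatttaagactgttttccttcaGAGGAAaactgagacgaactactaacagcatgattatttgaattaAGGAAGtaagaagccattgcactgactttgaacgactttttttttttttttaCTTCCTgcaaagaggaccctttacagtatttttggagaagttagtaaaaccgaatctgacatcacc
Lck: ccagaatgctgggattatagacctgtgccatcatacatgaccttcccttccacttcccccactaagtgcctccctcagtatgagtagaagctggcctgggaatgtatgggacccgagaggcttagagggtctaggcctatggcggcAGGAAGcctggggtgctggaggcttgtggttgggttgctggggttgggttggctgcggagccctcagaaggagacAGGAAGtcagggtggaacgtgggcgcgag
Coro1a: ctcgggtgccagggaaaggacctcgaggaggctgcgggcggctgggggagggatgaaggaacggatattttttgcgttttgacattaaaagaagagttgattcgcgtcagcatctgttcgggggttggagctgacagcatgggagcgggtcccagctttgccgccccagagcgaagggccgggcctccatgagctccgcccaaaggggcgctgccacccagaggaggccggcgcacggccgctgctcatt
S100a9: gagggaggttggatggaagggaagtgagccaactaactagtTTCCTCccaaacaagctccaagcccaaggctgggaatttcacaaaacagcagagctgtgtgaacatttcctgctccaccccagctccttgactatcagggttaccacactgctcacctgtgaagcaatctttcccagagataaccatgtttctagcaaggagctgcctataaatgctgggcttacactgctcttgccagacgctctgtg

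One or the other string was found in 20 of the 25 windows (80%), against 39.4% of 27457 promoters of the same length, with GAGGAA in 14 and AGGAAG in 16. Coro1a, the member with the largest change among pan-leukocyte genes, held neither of them in this window, whereas S100a9 held 1. The core TGTGGT of sites for RUNX factors, which act in T cells, was in 9 of the 25 (36%), against 14.1% of all promoters, and TATAAA in 3 (12%), against 13.1%. The other strings searched were ACTTCC, whose reverse complement overlaps AGGAAG (48% of members against 19.5%), CACCC (64% against 49.4%), TGACATCA (12% against 3.75%) and GAGGAAGT, which contains both marked strings (4% against 2.04%). All were searched on both strands, and a match describes letters in the window, not a bound site. The strings were chosen with earlier results of these data known. Whether such sites play a part in the difference between the diets was not tested.

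T cell markers had a median change of 0.75 over 7 genes, all 7 with a change above 0, against 50% of all genes. At an unadjusted p under 0.05, 3 of the 7 were higher (42.9%, against 10.5% of all genes). The 3 were Lck, Cd3e and Cd3d, which act in one pathway: the CD3 chains transmit the signal of the T cell receptor and are phosphorylated by the kinase Lck. Lck had the largest change of all 34 markers. It was at 6.46, 5.78, 4.90 and 6.52 in Si deplete and at 4.94, 4.45, 4.40 and 4.79 in Si replete kidneys. Only Si deplete replicate 3 lay within the Si replete range, and the Si deplete kidneys were the more variable group (SD 0.76 against 0.26, n = 4 each). The log2 change was 1.27 (standard error 0.33, adjusted p = 0.18 from limma), or 2.41-fold, and 1.09 without Si deplete replicate 1.

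Cd3e was at 5.59, 5.13, 4.49 and 6.22 in Si deplete and at 4.51, 4.28, 4.24 and 4.48 in Si replete kidneys. The Si replete kidneys were close together (SD 0.14), while the Si deplete kidneys were spread (SD 0.73), and the groups overlapped only through Si deplete replicate 3 and the highest Si replete kidney. Its log2 change was 0.98 (standard error 0.31, adjusted p = 0.226 from limma), and a second probe set of the gene, dim at a mean level of 3.94, gave 1.29 (standard error 0.36). Cd3g differed by 0.77 (standard error 0.37), with Si deplete replicate 3 the lowest of all 8 kidneys at 4.14. Cd3d was dim but differed in the same direction, by 0.75 (standard error 0.25). The adhesion receptor Cd2 (0.30) and the coreceptors Cd4 (0.21) and Cd8a (0.56) were dim, with 95% intervals that included 0. For Cd8a the change was 0.26 without Si deplete replicate 1 and 0.22 with its 3 probe sets averaged. None of the 7 passed in limma (adjusted p-values 0.18 to 0.72).

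The 10 macrophage and monocyte genes had a median change of 0.44, and 9 had a change above 0, against 50% of all genes. At an unadjusted p under 0.05, 2 of the 10, Cd68 and Cd14, were higher (20%, against 10.5% of all genes), and none passed at an adjusted p under 0.1 in limma (smallest 0.28). Csf1r, the receptor on which macrophages depend, was at 7.51, 7.86, 7.34 and 7.88 in Si deplete and at 7.03, 7.21, 6.44 and 7.76 in Si replete kidneys. Si replete replicate 4 lay within the range of the Si deplete kidneys and Si replete replicate 3 was the lowest of all. The log2 change of Csf1r was 0.54 (standard error 0.25, adjusted p = 0.362 from limma), and 0.31 without Si replete replicate 3. For Aif1, the calcium-binding protein IBA1 of macrophages, the change was 0.50 (standard error 0.25), and 0.32 without Si replete replicate 3. For the rat F4/80 gene Adgre1 it was 0.50 (standard error 0.31), and 0.24 without Si replete replicate 1 or 0.26 without Si deplete replicate 2.

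Cd14, the coreceptor for lipopolysaccharide, was at 7.51, 6.48, 6.09 and 6.67 in Si deplete and at 6.34, 5.76, 5.93 and 6.24 in Si replete kidneys. Si deplete replicate 1 was well above all others, and the log2 change was 0.62 (standard error 0.27, adjusted p = 0.331 from limma) with it and 0.35 without it. Cd68, a lysosomal protein of phagocytes, differed by 0.80 (standard error 0.30) near the lower end of the scale, at levels of 3.33 to 4.66 against 2.81 to 3.87. Lyz2, macrophage lysozyme and the brightest marker here, differed by 0.33 (standard error 0.22), and by 0.14 without Si replete replicate 3. Mrc1, the mannose receptor of resident macrophages, varied widely within both groups, from 2.88 to 4.97 in Si deplete and from 2.54 to 5.58 in Si replete kidneys, and its interval of -1.09 to 1.85 leaves room for a difference in either direction. Its change was 0.38, and ran from -0.08 without Si replete replicate 3 to 0.94 without Si replete replicate 4. Ms4a7 (0.27), Itgam (0.04) and the scavenger receptor Cd163 (-0.03) were dim.

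The adaptors by which myeloid receptors signal had a median change of 0.54 over 2 genes. Tyrobp, the adaptor DAP12, was at 6.94, 6.92, 6.28 and 6.59 in Si deplete and at 5.70, 6.41, 5.64 and 6.40 in Si replete kidneys. Its log2 change was 0.64 (standard error 0.22, adjusted p = 0.249 from limma), and the groups overlapped only through Si deplete replicate 3. Fcer1g, the common gamma chain of Fc receptors, differed by 0.44 (standard error 0.21, adjusted p = 0.355). Of the subunits of the phagocyte NADPH oxidase, Cybb was clearly measured but varied more within groups than between them (log2 change 0.29, standard error 0.42, with SDs of 0.78 and 0.67), and Ncf1 was dim and differed by -0.03 (standard error 0.12).

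The granulocyte genes S100a8 and S100a9, which together encode calprotectin of neutrophils, were the class with a median below 0 (-0.13). S100a9 was at 6.85, 5.05, 5.45 and 3.88 in Si deplete and at 4.96, 6.37, 5.28 and 5.36 in Si replete kidneys, so that the highest and the lowest of all 8 kidneys were both Si deplete. Its log2 change was -0.18 (standard error 0.56, adjusted p = 0.909 from limma), with an interval of -1.44 to 1.08. It was -0.70 without Si deplete replicate 1 and 0.29 without Si deplete replicate 4. S100a8 was dim and differed by -0.07 (standard error 0.30). The same kidneys were high and low in both genes, Si deplete replicate 1 with 6.85 and 4.00 and Si deplete replicate 4 with 3.88 and 2.46.

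**Figure D3:**
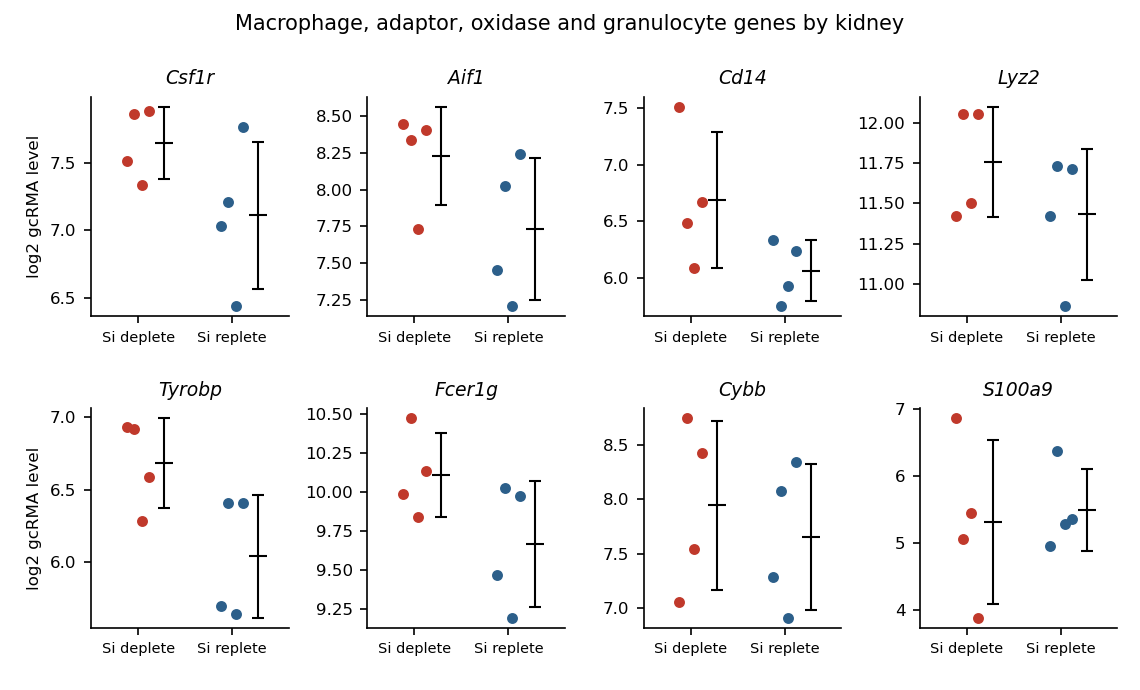
Log2 gcRMA level (vertical axis, with a separate range per gene) of 4 macrophage genes, both adaptors, Cybb and S100a9 for the kidneys of each diet. Every dot is 1 kidney, the black mark beside the dots gives the group mean ± SD (n = 4), and the groups overlap for all 8 genes.

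B and NK cells were represented by 5 genes, of which Prf1 alone had a mean level of 4 or more, at 4.04. Cd79b, a chain of the B cell receptor complex, was at 2.27, 3.01, 2.24 and 2.28 in Si deplete and at 2.14, 2.33, 1.91 and 2.25 in Si replete kidneys. Only Si deplete replicate 2 stood above the rest, and the log2 change was 0.29 (standard error 0.18). The genes of cytotoxic granules and NK receptors had a median change of 0.18 over 4 genes, none with an unadjusted p under 0.05: Nkg7 differed by 0.38 (standard error 0.23), granzyme B (Gzmb) by 0.22 (standard error 0.18), Klrd1 by 0.14 (standard error 0.30) and perforin (Prf1) by -0.07 (standard error 0.15). Adjusted p-values in limma ran from 0.456 to 0.872. The medians of the classes stand side by side as a description, and no test of a difference between classes was made.

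**Figure D4:**
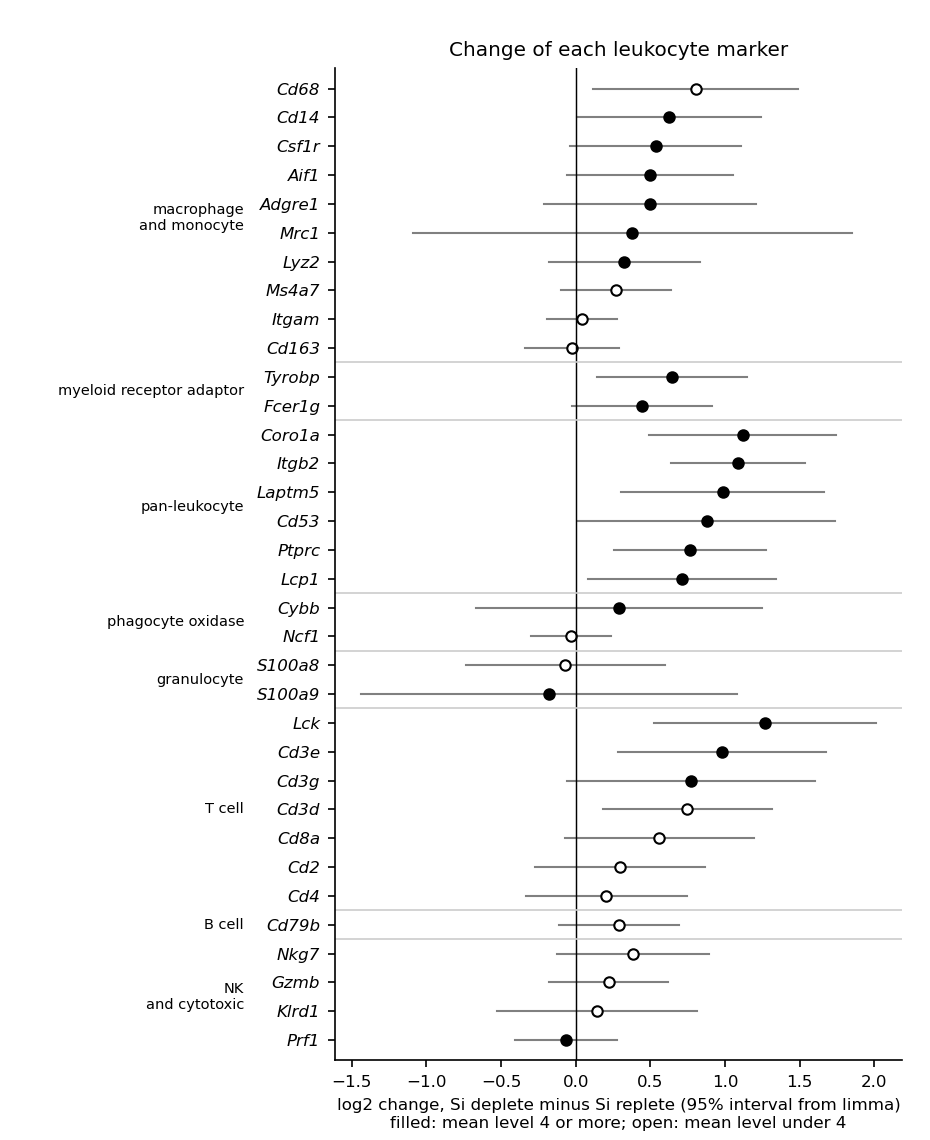
Log2 change of each marker (Si deplete minus Si replete, horizontal axis) with its 95% interval from limma, genes grouped by cell type. Filled points have a mean level of 4 or more and open points a lower one. The intervals of all 6 pan-leukocyte genes, of Lck, Cd3e and Cd3d and of Cd68, Cd14 and Tyrobp lie above 0. Those of all other markers, both granulocyte genes among them, span it.

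Another 8 probe sets measured 7 of the markers again, and 7 of the 8 were dim. The brighter exception, of Laptm5, had a log2 change of 1.06 (standard error 0.27), close to the 0.98 of the main one. The second probe set of Ptprc gave 0.85 (standard error 0.29) and that of Cybb 0.30 (standard error 0.29). Those that differed in sign from the main probe set, of Aif1 (-0.10, standard error 0.07) and Cd8a (-0.15, standard error 0.12), lay at the lower end of the scale.

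Within each diet, 1 kidney was often the lowest. Si deplete replicate 3 was the lowest of its group in 22 of the 34 markers, including all 6 pan-leukocyte genes, and Si replete replicate 3 was the lowest of its group in 22 as well. Si deplete replicate 2 was the lowest of its group in none. Relative to the mean of all arrays, the pan-leukocyte genes averaged 0.57, 0.86, -0.23 and 0.64 in the Si deplete kidneys and -0.60, -0.30, -0.92 and -0.04 in the Si replete kidneys. The classes did not follow one order. T cell genes were highest in Si deplete replicates 4 and 1 (0.73 and 0.63), whereas macrophage and monocyte genes were highest in Si deplete replicates 2 and 4 (0.47 and 0.32), and Si deplete replicate 1, at 0.04, was below Si replete replicate 4, at 0.27.

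Wider lists of leukocyte genes, 119 of them measured, gave a similar picture. Of the 119, 80 had a mean level under 4. At an unadjusted p under 0.05, 33 (27.7%) were higher and 5 (4.2%) lower in Si deplete kidneys, against 10.5% and 7.95% of all genes. The median change was 0.21, and none passed at an adjusted p under 0.1 in limma. The groups were fully separated in 11 higher genes and 1 lower gene of the 119, against 6.45% and 5.49% of all genes. Among 23 macrophage genes 9 (39.1%) were higher and none lower at an unadjusted p under 0.05. They were led by the receptor tyrosine kinase Axl (0.95, standard error 0.16, adjusted p = 0.118 from limma) and by Gpnmb (1.93, standard error 0.43), a glycoprotein of lipid-laden macrophages. Axl and Gpnmb separated the groups. Both genes are also known in cells other than leukocytes. Of 15 genes of leukocyte signalling 8 (53.3%) were higher, and 4 of these 8 were dim. Among them were the GTPase Rac2 (1.31, standard error 0.29) and the dim integrin activator Fermt3 (0.76, standard error 0.18).

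At an unadjusted p under 0.05, 10.5% of all genes were higher and 7.95% lower, and 5.8% of dim genes were higher. Of 21 further T cell genes, 15 with a mean level under 4, 8 (38.1%) were higher at that p and 1 lower. Of the 8 higher ones, 6 were dim. They included the adaptor Lat (0.78, standard error 0.19) and the kinase Zap70 (0.47, standard error 0.15), both dim. The transcription factor Tcf7 (0.92, standard error 0.28) was not dim. Of 15 plasma cell and B cell genes, 10 with a mean level under 4, 4 (26.7%) were higher and 1 lower. The joining chain Jchain (1.06, standard error 0.33) and Pou2af1 (0.73, standard error 0.23) were among the higher ones. The lower one was the dim Tnfrsf17 (-0.29, standard error 0.11). As with the markers themselves, few granulocyte or NK and cytotoxic genes differed at that p. Of 13 granulocyte genes 1 (7.69%), Csf3r, was higher and none lower. Of 15 NK and cytotoxic genes 1 (6.67%) was higher, Fcgr3a, which macrophages also carry, and 1 lower, Gzma. Both shares of higher genes were near the 5.8% of dim genes. All 13 granulocyte genes and 14 of the NK and cytotoxic genes had a mean level under 4, where a difference may not be detectable. All 9 mast cell genes were dim as well, with 1 lower, and of 7 dendritic cell genes 2 were higher and 1, the antigen-presenting Cd1d1, was lower (-0.73, standard error 0.24).

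**Figure D5:**
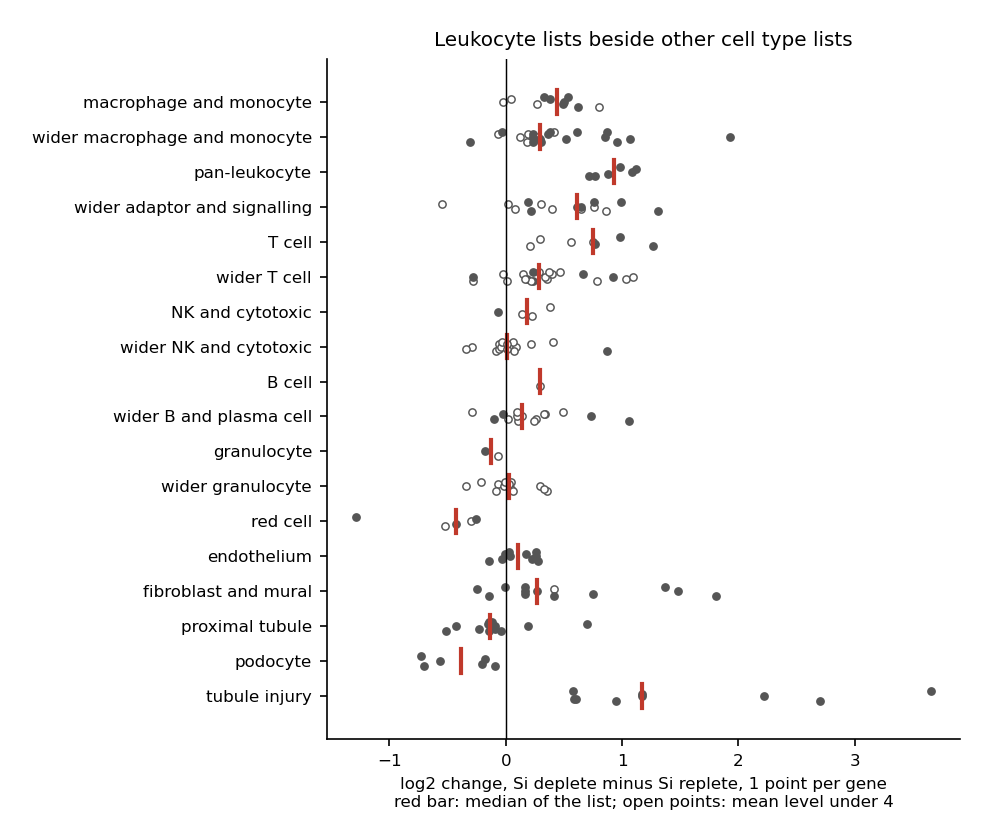
Log2 change (Si deplete minus Si replete, horizontal axis) of the genes of each list, with 1 point per gene, open where its mean level was under 4, and a red bar at the median of the list. Pan-leukocyte, T cell and tubule injury genes and the only B cell marker lie entirely above 0. Red cell genes, podocyte genes and both granulocyte markers lie entirely below, and the wider granulocyte list on both sides.

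Lists of other cell types are given beside these values, and none of their genes described here passed at an adjusted p under 0.1 in limma. Over all genes, 10.5% were higher and 7.95% lower at an unadjusted p under 0.05. Of 11 red cell genes listed, 5 were measured, 2 of them dim. All 5 were lower in Si deplete kidneys, 4 of them at an unadjusted p under 0.05. These included the dim Ahsp, a chaperone of hemoglobin (-0.52, standard error 0.19), and Alas2 of heme synthesis (-1.29, standard error 0.50). The average of the 5 relative to the mean of all arrays lay at -0.53 to 0.18 in the Si deplete group and at 0.06 to 0.57 in the Si replete group. The 9 genes of a tubule injury list had a median change of 1.17, with 8 higher at an unadjusted p under 0.05. They averaged 1.64, 0.40, 0.08 and 0.91 in the Si deplete kidneys and -0.20, -1.10, -1.17 and -0.55 in the Si replete kidneys. Replicate 3 was the lowest of each group here too, but the highest was Si deplete replicate 1, against replicate 2 for pan-leukocyte genes (0.86). Si deplete replicate 3 was also the lowest of its group in red cell (-0.53) and podocyte genes (-0.69), and the highest of it in endothelial genes (0.25). Fibroblast and mural genes had a median change of 0.27 over 13 genes, with 4 higher, and endothelial genes one of 0.11 over 10, with 2 higher. Podocyte genes had a median of -0.39 over 6, with 2 lower, and proximal tubule genes one of -0.13 over 12, with none past that p. The part of these other cell types in the levels of leukocyte markers was not tested.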

How the data were processed

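Kidney RNA of 4 Si deplete and 4 Si replete rats was hybridized to Affymetrix rat genome arrays, 1 per rat. The authors deposited log2 levels per probe set from gcRMA, summarized by m-estimators (GCRMA 2.36.0 in the submitters' processing notes). Probe intensities were not analysed here. Of 31099 rows, 57 controls were left out, and the remaining 31042 probe sets were fitted with limma 3.58.1 in R 4.3.3 (lmFit, eBayes) taking Si replete from Si deplete means, with p-values adjusted over all probe sets by Benjamini-Hochberg and a threshold of 0.1. Shares of all genes use the brightest probe set of each gene. Single genes were also compared by exact permutation over 70 arrangements. Intervals are 95%. The fit was tested on simulated data, where, among 31042 probe sets, it found 85% of the 100 that had a log2 change of 1 and 97% of the 100 with a change of 2, and 19 of its 201 calls were false. The simulated noise was drawn separately for each probe set, without variation shared by the genes of a kidney. These shares therefore need not hold for the markers.

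All 34 markers were matched by Entrez ID to RefSeq. The markers, the wider lists and the searched promoter strings were chosen with earlier results of these data known. All markers are named, and of each other list at most the 3 genes with the smallest p. Each replicate is a separate rat. No 2 arrays were alike enough to be 1 sample (highest correlation 0.9961). Over all probe sets, arrays sharing a replicate number deviated from their group means with correlations of -0.088 to 0.090. Of the 8 arrays, 4 matched best the array of their own number in the other group. These values do not settle pairing for the 34 markers. The numbers were not treated as pairing rats in the main fit, and a replicate block was an alternative. Alternatives were array weights, a robust prior, an intensity trend, a filter on mean level, other normalizations, a replicate block, leaving out each array, averaging the probe sets of a gene, a threshold of 0.05 and Storey's q-value.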

Additional observations from a re-analysis of the deposited data

Results flagged for a closer look

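In 3 of 68 groups of 4 kidneys (34 markers in 2 diets), 1 kidney lay far from the other 3 by Dixon's ratio, where chance alone flags about 1 in 20 groups. Aif1 was at 7.73 in Si deplete replicate 3, against 8.34 to 8.45 in the other Si deplete kidneys. Coro1a was at 7.35 in Si replete replicate 3, against 7.95 to 8.00 in the others of its group. Cd79b was at 3.01 in Si deplete replicate 2, against 2.24 to 2.28 in the others, at a level near the lower end of the scale.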

How the results depend on the processing

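All settings were planned. No marker passed at an adjusted p under 0.1 with array weights, a robust prior, an intensity trend, medians subtracted, quantile normalization or averaged probe sets, nor at 0.05 (limma; 10 to 13 higher at an unadjusted p under 0.05). It became 1, Itgb2, when those of mean under 4 were dropped (58 higher and 19 lower over all probe sets), and 1 by Storey's q-value (121 higher and 51 lower). With the replicate block, 2 passed, Coro1a and Laptm5, and 21 rather than 12 were higher at an unadjusted p under 0.05, where 90 probe sets in all passed higher and 14 lower and 11.1% of all genes were higher at that p. The numbers in the sample titles, used for the block, differ from those in the sample descriptions. With single arrays left out, 0 to 6 passed (Ptprc, Itgb2, Coro1a, Lck, Cd3e and Cd3g, all without Si deplete replicate 3), 7 to 18 were higher at an unadjusted p under 0.05 (7.46% to 11.8% of all genes) and 2 to 14 separated the groups (7.52% to 10.5% of all genes), with 5 when Si replete replicate 1 or 4 was left out. None was lower in any of these counts, and the median change lay between 0.32 and 0.63 over all settings. The sign turned in 9 markers, among them Mrc1 and S100a9 with mean levels over 4: Itgam to -0.015 with medians subtracted, and, over the arrays left out, Itgam (-0.020 to 0.10), Ncf1 (-0.12 to 0.029), Klrd1 (-0.11 to 0.35), Cd4 (-0.051 to 0.36), S100a8 (-0.36 to 0.16), S100a9 (-0.70 to 0.29), Prf1 (-0.21 to 0.015), Mrc1 (-0.077 to 0.94) and Cd163 (-0.11 to 0.12). The other 25 markers kept their direction throughout, Itgb2 at 0.92 to 1.21 and Lck at 1.07 to 1.61. The cause of these differences was not tested. Subtracting medians shifted all probe sets to a median change of -0.067. The filter on mean level leaves 20 markers.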
